A study of Mus musculus with 12 samples.

Results

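Proliferation and mitosis genes were followed through 12 RNA-seq libraries of mouse mammary tissue. They are 50 genes that were picked by name as markers of dividing cells, from the transcription factors that switch on DNA replication to the motors that divide the cell. Their rows were read from the deposited FPKM tables, which hold 23704 gene names for the Normal and Tumor libraries and 23691 for the DMSO and C646 libraries. FPKM is the number of sequenced fragments of a gene scaled to its length and to the size of the library. A row of its own was found for 48 of the 50 genes in each of these pairs of groups, and for 47 genes in both. Foxm1 shared a row with 4933413G19Rik in all libraries, Mcm6 with Dars in Normal and Tumor, and Nusap1 with 1700020I14Rik in DMSO and C646. Such joined rows were not counted among the 48.

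The study asked how gene expression differed between normal mammary gland and mammary tumor, and what C646, an inhibitor of the acetyltransferase p300, did to tumors. All groups were female mice of 12 weeks, with 3 libraries a group. Normal was mammary gland of wild-type FVB mice without treatment, with abdominal and inguinal glands of 3 mice mixed for each replicate. Tumor was untreated tumor of the thoracic gland of MMTV-PyVT mice, 1 mouse a replicate, in which the MMTV promoter drives polyoma middle T antigen, mainly in mammary epithelium. DMSO and C646 were the largest tumors of MMTV-PyVT mice injected with the solvent or with C646, and the labels give a dose of 1 mg/kg to each of these groups. Genotype, tissue, gland position and pooling all differ between Normal and Tumor and cannot be told apart. How many reads were mapped in each library was not recorded in these tables. Libraries were made from poly-A RNA without keeping strand, so reads of overlapping antisense genes cannot be separated.

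A cell that divides passes through G1, copies its DNA in S phase, and separates the copies in mitosis after G2. Genes for S phase are switched on by E2F factors at the G1/S border, and genes for mitosis later, in G2/M, by a complex that includes B-Myb and FoxM1. Most of these transcripts are scarce in resting cells, which is why Mki67 and similar genes are used to mark tumors with many dividing cells. By their textbook timing, 19 of the 50 genes were assigned to G1/S and 31 to G2/M.

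The tissues differed in much more than these genes. All 10 adipocyte markers were lower in Tumor, with a summed level of 26640 to 33580 FPKM in Normal and 121 to 2520 FPKM in Tumor. All 8 B-cell markers and all 7 measured T-cell markers were lower too, with summed B-cell levels of 280 to 353 FPKM in Normal and 0.479 to 1.08 FPKM in Tumor. Of 10 epithelial markers 9 were higher, with sums of 492 to 1029 FPKM in Normal and 3300 to 4539 FPKM in Tumor. All 7 skeletal muscle markers were higher, with sums of 11 to 96.3 FPKM and 1868 to 5708 FPKM. The part of this shift in cell types in the results on dividing cells was not tested. In bulk tissue, fewer cells of a type and less RNA per cell cannot be told apart.

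Tumors had higher levels of nearly all the proliferation and mitosis genes measured. Of the 48 genes found, 47 reached 1 FPKM in 3 or more of the 6 libraries, the filter used, and were tested with limma over all 13031 genes that did so. Of these 47 genes, 44 were higher in Tumor at a Benjamini-Hochberg adjusted p under 0.05 and 0 were lower, where 28.8% of all tested genes were called higher and 31.7% lower. The 3 tested genes that were not called were Cdk2, Mcm4 and Kif23. In 45 of the 48 genes found, every Tumor library lay above every Normal library, which was so in 33.1% of all tested genes, while 0 of the 48 had every Tumor library below, which was so in 35.8%. All 47 tested genes had a log2 fold change above 0, beside 49.4% of all tested genes. The median log2 fold change of the 47 genes was 2.16, from 0.19 for Mcm4 to 3.79 for Birc5, beside -0.02 over all tested genes. For 7 genes, Mybl2, Cdc6, Ttk, Bub1, Cenpe, Cenpf and Nusap1, fewer than 3 Normal libraries reached 1 FPKM, so that they passed the filter only with the tumors. Among the 40 genes that reached 1 FPKM in each Normal library, 37 were called higher. The share of all genes called higher under that restriction was not taken, and the 28.8% above is for the filter used. With no filter, 42 of the 48 genes were called higher, where 14.6% of 23704 names were.

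**Figure D1:**
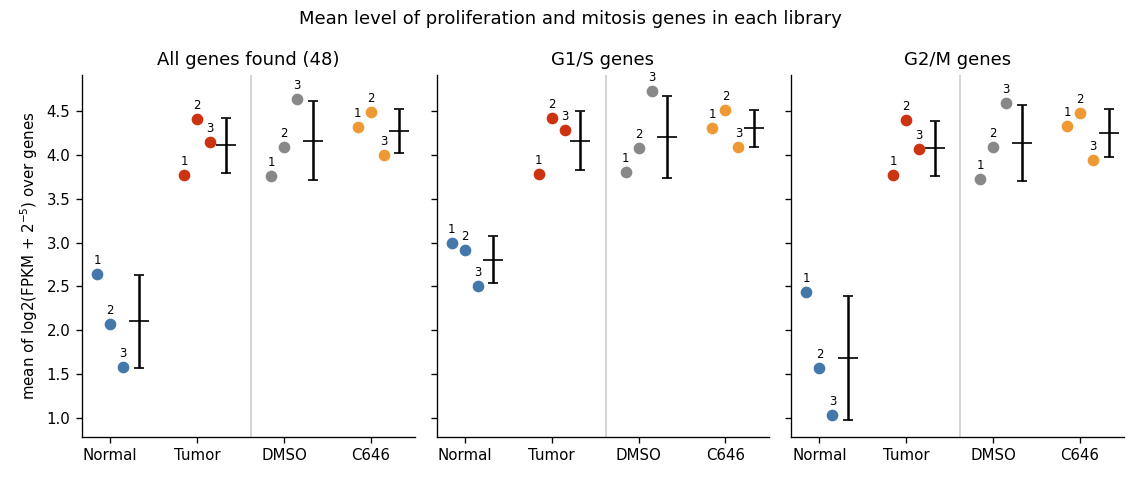
Mean over genes of log2(FPKM + 2^-5), a pseudocount of 0.03125 FPKM, in each library (numbered points are replicates, bars the group mean ± SD, n = 3), for all genes found, G1/S genes and G2/M genes. The 3 Tumor libraries lie above the 3 Normal libraries in each panel, and DMSO and C646 overlap. The grey line separates the experiments, whose tables were made separately.

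The mean of log2(FPKM + 2^-5) over the 48 genes was 2.65, 2.08 and 1.59 in Normal replicates 1, 2 and 3 and 3.77, 4.41 and 4.15 in Tumor replicates 1, 2 and 3. The lowest tumor was thus above the highest normal gland. Group means were 2.1 ± 0.53 (SD, n = 3) and 4.11 ± 0.32 (SD, n = 3), a difference of 2.01 or 4.02-fold. The difference was larger for G2/M genes, at 2.40 (5.26-fold), than for G1/S genes, at 1.36 (2.56-fold). In the fits of single genes, 29 of 30 tested G2/M genes were called higher with a median log2 fold change of 2.39, and 15 of 17 tested G1/S genes with a median of 1.30.

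G2/M genes stood below G1/S genes in normal gland and level with them in tumor. The G2/M mean minus the G1/S mean was -0.56, -1.35 and -1.46 in the Normal replicates on the log2 scale, and -0.01, -0.03 and -0.22 in the Tumor replicates. The groups did not overlap, with means of -1.12 ± 0.49 and -0.09 ± 0.11 (SD, n = 3 each). The DMSO and C646 tumors were at -0.07 ± 0.07 and -0.05 ± 0.09 (SD, n = 3 each), within tables made separately. The genes averaged were not quite the same. They were 18 G1/S and 30 G2/M genes in Normal and Tumor, and 19 and 29 in DMSO and C646. The lists were chosen with the results known, so no test was made of this gap.

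Promoters of the genes were read for the letters of cell cycle motifs, because the G1/S and G2/M genes differed in the size of their change. Promoter windows of 250 bases before to 50 bases after a transcript start came from RefSeq (GRCm38.p6), and 42 of the 50 genes had a window. The motifs were the cell cycle genes homology region (CHR) with TTTGAA as its first form and TTTAAA as its second, and the CCAAT box bound by NF-Y. For E2F, TTGGCGC was searched as the first form, with TTCCCGC as the second form of that site and TTCGCGC as the third form. Both strands were searched. TTTAAA reads the same on both strands, and on opposite strands the E2F forms TTGGCGC and TTCGCGC can overlap. TTTGAA was present in 18 of 26 G2/M genes (69.2%) and in 1 of 16 G1/S genes (6.25%), Mcm2, beside 20.2% of 27025 genes. TTTAAA was present in 30.8% of G2/M genes and 25% of G1/S genes, beside 14.9% of all genes. CCAAT was present in 20 G2/M genes (76.9%) and 9 G1/S genes (56.2%), beside 41.1% of all genes. At least 1 of the 3 E2F forms was present in 8 G1/S genes (50%) and 4 G2/M genes (15.4%), beside 9.2% of all genes. The 27025 genes were all genes with a window, not matched to the members for expression or base composition. These are matches of letters, not sites shown to be bound.

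**Figure D2:**
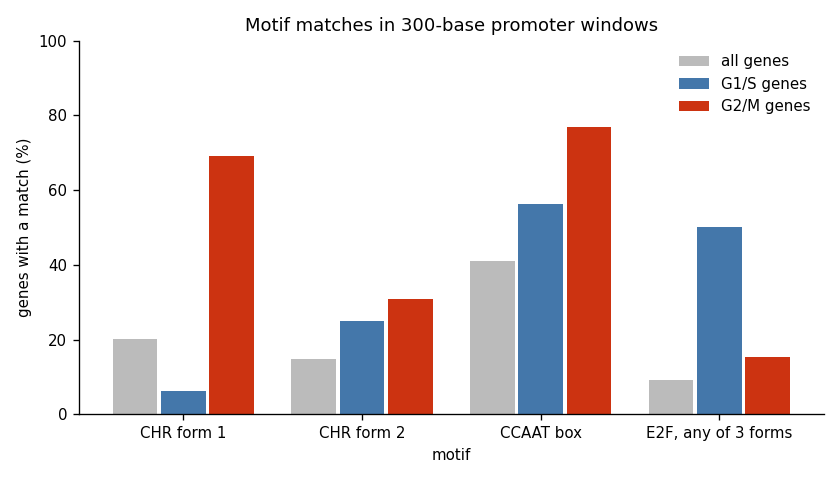
Share of genes (%) with a match to each motif, on either strand, in windows of 250 bases before to 50 bases after the start, for all 27025 genes, 16 G1/S genes and 26 G2/M genes. TTTGAA is the first form of the CHR and TTTAAA the second. TTTGAA stands at 69.2% of G2/M genes against 6.25% of G1/S genes, and the E2F forms at 15.4% against 50%.

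The promoters shown are those of the 3 genes with the largest change between Tumor and Normal, and of the gene with the smallest, among the G2/M and the G1/S genes with a window. Each runs 5′ to 3′ on the strand of the gene, from 150 bases before the start to 20 bases after it, 170 bases in all, with motif matches in capitals. The 4 G2/M windows are Birc5 (chr11:117849087-117849256, plus strand), Ube2c (chr2:164769779-164769948, plus strand), Plk1 (chr7:122159285-122159454, plus strand) and Kif23 (chr9:61946780-61946949, minus strand).
Birc5: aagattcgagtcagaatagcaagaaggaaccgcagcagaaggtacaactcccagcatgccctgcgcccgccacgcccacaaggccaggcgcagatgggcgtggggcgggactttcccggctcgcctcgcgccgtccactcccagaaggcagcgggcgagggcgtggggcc
Ube2c: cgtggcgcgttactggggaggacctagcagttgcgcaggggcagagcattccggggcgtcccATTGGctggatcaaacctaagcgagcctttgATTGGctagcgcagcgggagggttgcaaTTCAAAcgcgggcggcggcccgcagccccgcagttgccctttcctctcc
Plk1: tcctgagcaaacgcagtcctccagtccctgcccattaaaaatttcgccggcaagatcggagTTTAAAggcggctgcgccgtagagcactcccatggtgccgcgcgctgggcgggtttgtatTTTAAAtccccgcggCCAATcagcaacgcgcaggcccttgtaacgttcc
Kif23: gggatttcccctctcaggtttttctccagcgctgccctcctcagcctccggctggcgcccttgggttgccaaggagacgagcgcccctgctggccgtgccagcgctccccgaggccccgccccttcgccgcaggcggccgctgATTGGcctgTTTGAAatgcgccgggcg
Ube2c held TTTGAA on the minus strand 29 bases before the start and CCAAT on the minus strand at 57 and 88 bases before it. Plk1 held TTTAAA at 29 and 89 bases before the start, CCAAT 14 bases before it, and a further TTTGAA 30 bases after it, beyond the stretch shown. Kif23, with the smallest change, held TTTGAA 2 bases after its start and CCAAT on the minus strand 7 bases before it. Birc5, with the largest change, held none of the letters in this stretch, and TTTAAA 220 bases before its start, beyond the stretch shown. The first 20 bases after the start are transcribed if the RefSeq start is the one used. In 37 of the 44 windows of these genes, the window's bases past those 20 lay in a GENCODE transcript of the gene.

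The 4 G1/S windows are Tk1 (chr11:117825995-117826164, minus strand), Rrm2 (chr12:24708104-24708273, plus strand), Mybl2 (chr2:163054485-163054654, plus strand) and Cdk2 (chr10:128705032-128705201, minus strand). The starts of Kif23, Tk1 and Mybl2 in the table lie inside the span that RefSeq gives the gene.
Tk1: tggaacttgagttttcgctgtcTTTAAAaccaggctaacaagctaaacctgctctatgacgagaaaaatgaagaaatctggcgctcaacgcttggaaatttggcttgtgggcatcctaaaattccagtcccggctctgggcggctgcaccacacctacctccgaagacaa
Rrm2: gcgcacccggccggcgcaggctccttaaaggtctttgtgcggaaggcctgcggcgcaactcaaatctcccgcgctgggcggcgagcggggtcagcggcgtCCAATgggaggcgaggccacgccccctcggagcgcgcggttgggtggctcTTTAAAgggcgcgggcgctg
Mybl2: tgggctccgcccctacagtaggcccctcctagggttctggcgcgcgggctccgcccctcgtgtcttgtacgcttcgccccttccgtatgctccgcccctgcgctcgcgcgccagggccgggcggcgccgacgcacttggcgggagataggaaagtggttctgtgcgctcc
Cdk2: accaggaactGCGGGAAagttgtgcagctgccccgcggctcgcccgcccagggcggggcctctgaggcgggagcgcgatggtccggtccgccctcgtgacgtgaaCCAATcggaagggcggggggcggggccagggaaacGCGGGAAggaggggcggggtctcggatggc
Cdk2, whose change was the smallest, held the E2F form TTCCCGC on the minus strand at 10 and 140 bases before the start and CCAAT 45 bases before it. Rrm2 held CCAAT 50 bases before the start and TTTAAA from the start on, and Tk1 held TTTAAA 128 bases before it. Mybl2 held none of the letters searched. Its stretch holds TTGGCGG, which differs from the E2F form TTGGCGC in the last base and was not searched. That stretch lies wholly inside the span that RefSeq gives Mybl2. Whether Mybl2 has an E2F site in another form or place was not tested.

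**Figure D3:**
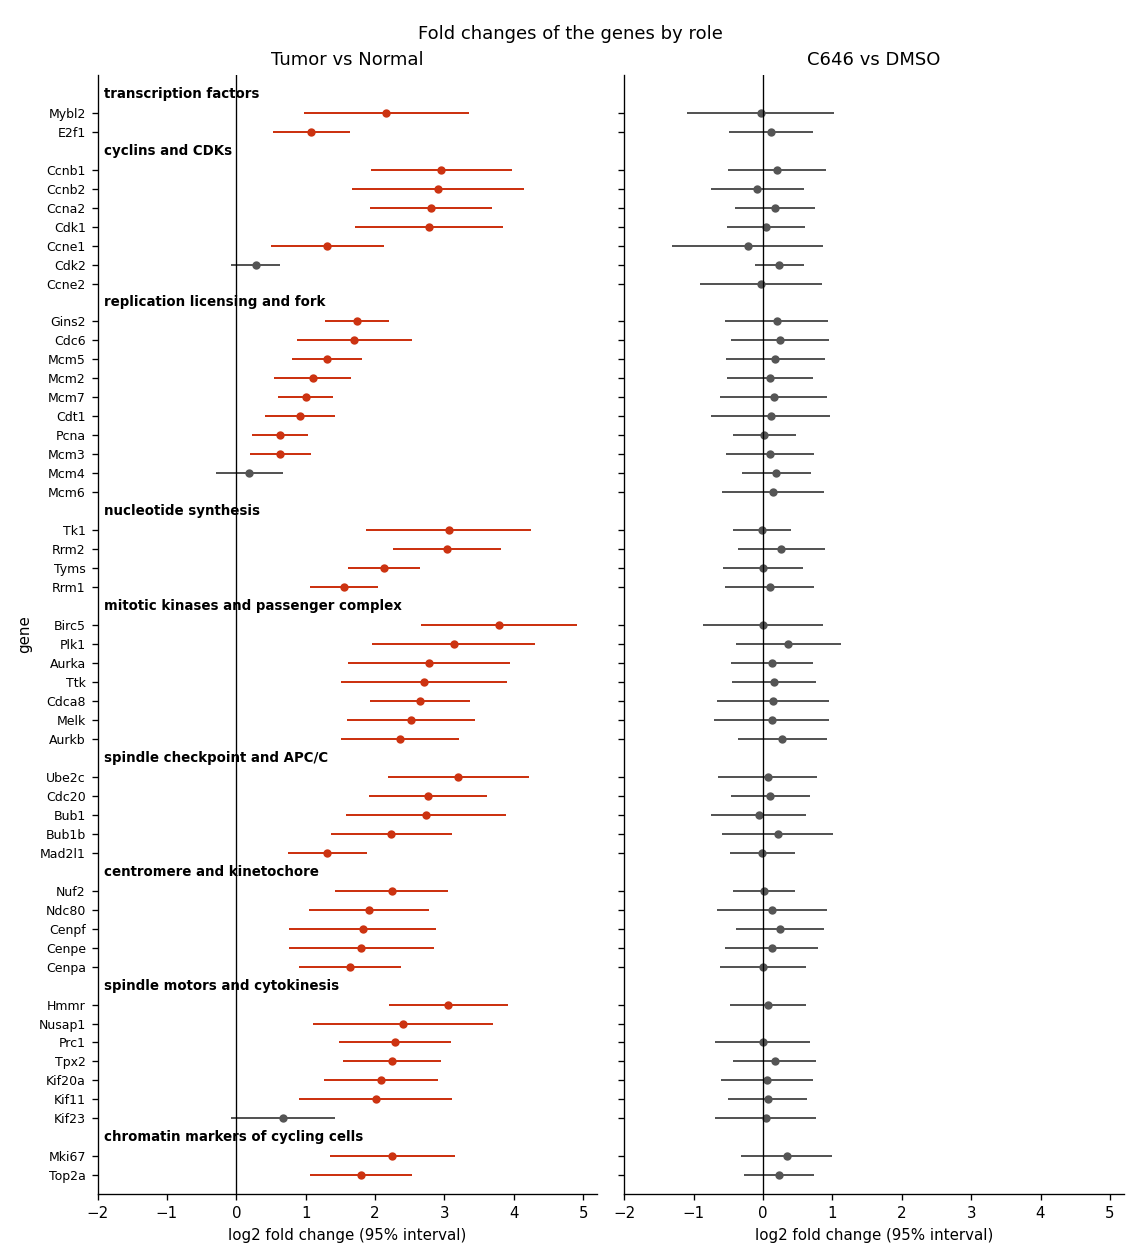
log2 fold change of each gene with its 95% interval from limma, grouped by role, for Tumor vs Normal (left) and C646 vs DMSO (right). Red marks an adjusted p under 0.05, and genes without a point had no row of their own or did not pass the filter. The red points lie between 0.63 and 3.79 on the left, and on the right the estimates lie between -0.22 and 0.37, each with an interval that spans 0.

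Among the transcription factors, E2f1 and Mybl2 both rose. E2f1, an activator of S-phase genes, was at 4.82, 4.83 and 2.87 FPKM in the Normal replicates and 8.36, 8.51 and 9.03 FPKM in the Tumor replicates. The log2 fold change was 1.08 ± 0.23 (SE, n = 3 each, limma, adjusted p = 0.0054). Mybl2, which encodes B-Myb, was at 1.75, 1.19 and 0.747 FPKM in Normal and 2.73, 9.64 and 5.61 FPKM in Tumor, with a log2 fold change of 2.16 ± 0.50 (SE, limma, adjusted p = 0.00758). Neither gene overlapped between the groups, but Mybl2 spanned 3.5-fold among the tumors, the widest range of the tested genes there. The row that joins Foxm1, a driver of G2/M transcription, with 4933413G19Rik was at 2.79, 1.49 and 1.5 FPKM in Normal and 7.73, 8.27 and 9.58 FPKM in Tumor (log2 fold change 2.19, limma, adjusted p = 0.000499).

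Of the 6 cyclin and CDK genes tested, 5 were called higher. Ccna2, the S and G2 cyclin and the gene with the highest mean FPKM of the group over all 12 libraries, was at 9.03, 4.80 and 3.24 FPKM in Normal and 31.0, 47.3 and 32.8 FPKM in Tumor (log2 fold change 2.80 ± 0.37 SE, limma, adjusted p = 0.000585). Ccnb1, the mitotic cyclin B1, changed most in the group, from 4.55, 1.66 and 1.97 FPKM to 13.4, 28.3 and 19.0 FPKM, a log2 fold change of 2.96 ± 0.43 (SE, limma, adjusted p = 0.000885). Ccnb2 and Cdk1, the other cyclin B and its kinase, rose by log2 fold changes of 2.91 and 2.78.
The G1/S members of the group had smaller fold changes. Ccne1, cyclin E1, had a log2 fold change of 1.31 ± 0.34 (SE, limma, adjusted p = 0.0124), and was not called with no filter on low values (adjusted p = 0.0623). Cdk2, the partner of cyclins E and A, was at 18.5, 16.6 and 14.0 FPKM in Normal and 20.3, 19.3 and 19.5 FPKM in Tumor. Its Tumor values were all above its Normal values, but the log2 fold change was 0.28 ± 0.14 (SE) and did not pass the test (limma, adjusted p = 0.134). Ccne2, cyclin E2, did not pass the filter, at 0.827, 0.741 and 0.711 FPKM in Normal and 0.570, 1.85 and 1.51 FPKM in Tumor, where the groups overlapped.

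Replication licensing and fork genes, which load the MCM helicase and copy DNA, had smaller fold changes than the mitotic groups. Of the 9 tested, 8 were called higher, with a median log2 fold change of 1.00. Their mean level differed by 1.03 on the log2 scale (2.04-fold), the smallest difference of the 9 role groups. Pcna, the sliding clamp of the polymerases and the most abundant gene of the group, was at 64.1, 69.1 and 63.8 FPKM in Normal and 91.6, 127 and 90.8 FPKM in Tumor, a log2 fold change of 0.64 ± 0.17 (SE, limma, adjusted p = 0.0125). The groups did not overlap, but the call was lost under quantile normalization (adjusted p = 0.0707) and without Normal replicate 3 (adjusted p = 0.0517).
Gins2, a subunit of the replicative helicase, changed most in the group, from 7.43, 5.21 and 5.96 FPKM to 19.0, 24.7 and 18.7 FPKM (log2 fold change 1.74 ± 0.19 SE, limma, adjusted p = 0.000252). Cdc6, a licensing factor, followed at 1.70. Subunits of the MCM helicase itself ranged from 0.19 for Mcm4 to 1.30 for Mcm5, with Mcm2 at 1.10, Mcm7 at 1.00 and Mcm3 at 0.63.
Mcm4 was at 11.1, 10.2 and 8.44 FPKM in Normal and 8.81, 13.1 and 12.3 FPKM in Tumor. Its groups overlapped and it was not called (limma, adjusted p = 0.44). Mcm3 was called in the fit of all libraries (limma, adjusted p = 0.0187) but not with no filter on low values, nor without Normal replicate 3, Tumor replicate 2 or Tumor replicate 3, where adjusted p lay between 0.0513 and 0.0712. The row that joins Mcm6 with Dars was at 36.1, 38.4 and 36.8 FPKM in Normal and 43.4, 64.2 and 50.8 FPKM in Tumor (log2 fold change 0.49, limma, adjusted p = 0.0348), and Dars, an aminoacyl-tRNA synthetase gene, cannot be separated from it.

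All 4 nucleotide synthesis genes rose, and their mean level differed by 2.45 on the log2 scale (5.45-fold). Rrm2, the cell-cycle-regulated small subunit of ribonucleotide reductase, was at 7.71, 7.10 and 4.11 FPKM in Normal and 34.8, 71.3 and 50.6 FPKM in Tumor, a log2 fold change of 3.04 ± 0.33 (SE, limma, adjusted p = 0.000241). Rrm1, the large subunit, was at 12.4, 9.69 and 10.4 FPKM in Normal and 24.5, 38.9 and 33.5 FPKM in Tumor, a log2 fold change of 1.56 ± 0.20 (SE, limma, adjusted p = 0.00054). Rrm1 was above Rrm2 in each normal gland, and Rrm2 was above Rrm1 in each untreated tumor. The injected tumors did not all share that order. Rrm1 was above Rrm2 in DMSO replicate 2 and C646 replicate 1, and Rrm2 was above Rrm1 in the other DMSO and C646 libraries. Tyms, thymidylate synthase, rose by 2.13 ± 0.21 (SE, limma, adjusted p = 0.000175), with the smallest adjusted p of the 47 genes. Tk1, thymidine kinase 1, was at 10.6, 11.3 and 4.73 FPKM in Normal and 44.8, 52.2 and 141 FPKM in Tumor (log2 fold change 3.06 ± 0.50 SE, limma, adjusted p = 0.00158). Every tumor was above every normal gland, and Tumor replicate 3 stood far above the other tumors.

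All 7 genes of the mitotic kinases and the chromosomal passenger complex rose, and this group had the largest difference in mean level, 2.85 on the log2 scale (7.21-fold). Birc5, which encodes survivin of the passenger complex, was at 18.9, 8.07 and 5.59 FPKM in Normal and 95.3, 114 and 208 FPKM in Tumor. Its log2 fold change of 3.79 ± 0.47 was the largest of the 47 genes (SE, limma, adjusted p = 0.000462). Tumor replicate 3 was again the highest by a wide margin.
Plk1, the kinase of mitotic entry and spindle assembly, was at 5.78, 3.52 and 1.35 FPKM in Normal and 20.8, 33.5 and 27.6 FPKM in Tumor, a log2 fold change of 3.14 ± 0.49 (SE, limma, adjusted p = 0.00132). Aurkb, the kinase of the passenger complex, changed least in the group, from 6.22, 4.41 and 2.37 FPKM to 16.2, 25.6 and 21.9 FPKM, a log2 fold change of 2.37 ± 0.36 (SE, limma, adjusted p = 0.00108). No gene of the group overlapped between Normal and Tumor. The others, Aurka, Ttk, Cdca8 and Melk, had log2 fold changes of 2.78, 2.71, 2.65 and 2.52.

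Birc5 and Tk1 lie next to each other on chromosome 11, with 23150 bases between Tk1 (chr11:117815519-117826087) and Birc5 (chr11:117849237-117855743, RefSeq, GRCm38.p6, the build of mm10). Their neighbours were read after their values had been seen. In Tumor replicate 3, the other protein-coding genes that start between 110 and 120 Mb of this chromosome were above the mean of the other tumors by a median of 1.01 on the log2 scale, with 85 of 91 genes above it. In the other 191 windows of 10 Mb with at least 20 genes, the highest median in that library was 0.54. In the same window, Tumor replicate 2 had a median of -0.74 against the mean of the other tumors, the lowest window of that library. Tumor replicate 1 had a median of -0.19 there. These values are not independent, since each tumor was set against the mean of the others. A high replicate 3 by itself lowers the values of replicates 1 and 2. Windows of the Normal libraries lay between -0.23 and 0.22.
In steps of 2 Mb, the medians of Tumor replicate 3 were 1.07 from 112 to 114 Mb, 1.19 from 114 to 116 Mb, 1.07 from 116 to 118 Mb, 0.51 from 118 to 120 Mb and 0.15 from 120 to 122 Mb. Birc5 and Tk1 were thus high there together with the genes around them. Of the members near 99 Mb of the same chromosome, Top2a was at 16.5, 25.6 and 24.2 FPKM and Cdc6 at 2.43, 3.93 and 4.30 FPKM in Tumor replicates 1, 2 and 3, so that replicate 3 was the highest for Cdc6 and not for Top2a. Without Tumor replicate 3 the log2 fold change was 3.46 for Birc5 and 2.54 for Tk1 (limma, adjusted p = 0.0016 and 0.00224). The source of the regional difference was not tested.

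**Figure D4:**
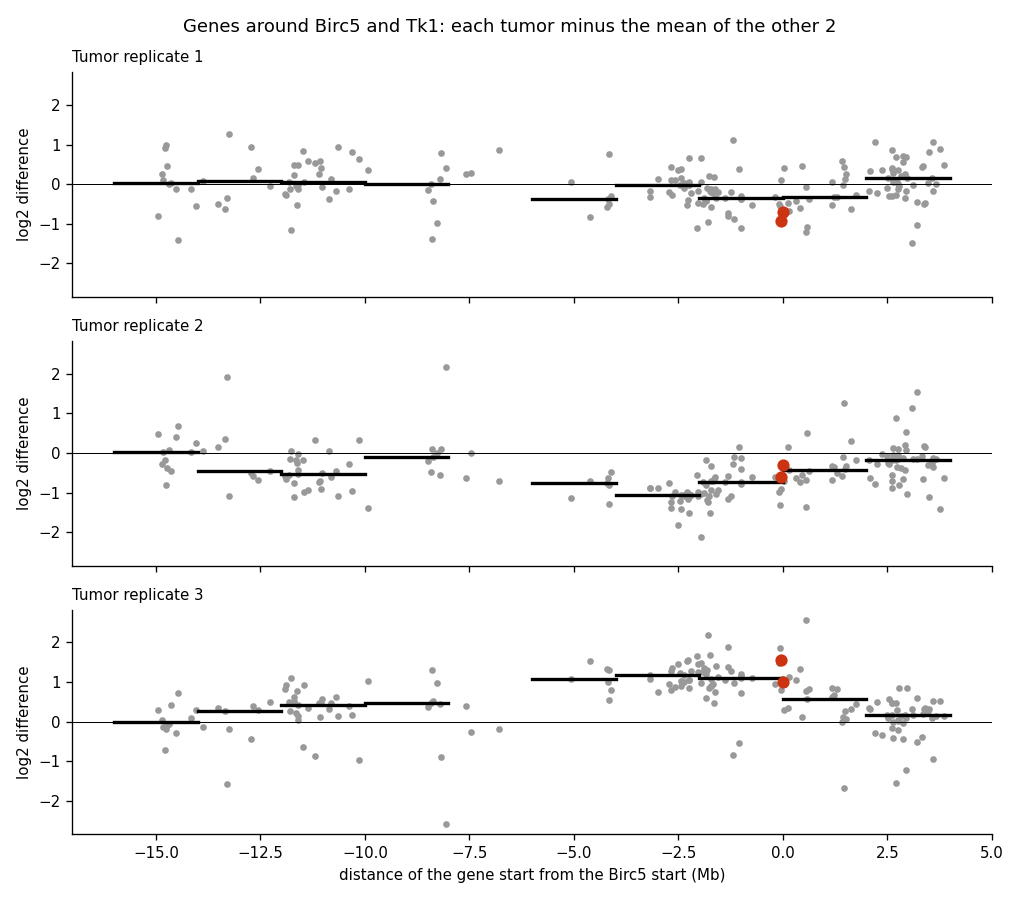
log2 level of each protein-coding gene in a tumor minus the mean of the other 2 tumors, against the distance of its start from that of Birc5 (Mb), with Birc5 and Tk1 in red and black lines for medians over 2 Mb with at least 5 genes. Points in Tumor replicate 3 stand near 1 in the 5 Mb before Birc5 and fall towards 0 within 4 Mb after it. In Tumor replicates 1 and 2 that stretch lies below 0, where a high replicate 3 by itself lowers their differences.

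All 5 spindle checkpoint and APC/C genes rose. Ube2c, the ubiquitin-conjugating enzyme of the anaphase-promoting complex, was the most abundant and changed most, from 24.8, 16.6 and 6.99 FPKM in Normal to 125, 156 and 115 FPKM in Tumor (log2 fold change 3.20 ± 0.42 SE, limma, adjusted p = 0.000609). Mad2l1, which encodes the checkpoint protein Mad2, changed least, from 9.27, 10.3 and 7.26 FPKM to 16.6, 29.2 and 22.0 FPKM (log2 fold change 1.31 ± 0.24 SE, limma, adjusted p = 0.00243). Every tumor was above every normal gland for each of them. Cdc20, the activator of the complex, and the checkpoint kinases Bub1 and Bub1b had log2 fold changes of 2.76, 2.73 and 2.23.

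All 5 centromere and kinetochore genes rose, by log2 fold changes of 1.64 to 2.24. Cenpa, the centromeric histone H3 variant, was at 21.9, 17.8 and 9.31 FPKM in Normal and 45.4, 54.9 and 44.2 FPKM in Tumor (log2 fold change 1.64 ± 0.31 SE, limma, adjusted p = 0.00286). It was the most abundant gene of the group and changed least. Nuf2, of the NDC80 complex that holds microtubules, changed most, from 1.95, 1.53 and 1.12 FPKM to 5.71, 11.4 and 5.72 FPKM (log2 fold change 2.24 ± 0.34 SE, limma, adjusted p = 0.00114). Its partner Ndc80 was at 1.91 on the same scale, and the large kinetochore proteins Cenpe and Cenpf were at 1.80 and 1.82.

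Of the 7 spindle motor and cytokinesis genes, 6 rose. Prc1, which bundles microtubules of the central spindle and had the highest mean FPKM of the group over all 12 libraries, was at 5.01, 2.62 and 2.22 FPKM in Normal and 11.2, 18.0 and 17.0 FPKM in Tumor (log2 fold change 2.28 ± 0.34 SE, limma, adjusted p = 0.000997). Hmmr, a spindle and hyaluronan-binding protein, changed most, from 2.73, 1.23 and 1.17 FPKM to 11, 17.5 and 12.4 FPKM (log2 fold change 3.06 ± 0.36 SE, limma, adjusted p = 0.000345). The other genes called, Nusap1, Tpx2, Kif20a and Kif11, lay between 2.01 and 2.40.
Kif23, a motor of the central spindle, was the exception. It was at 6.29, 5.22 and 3.37 FPKM in Normal and 5.41, 10.4 and 8.10 FPKM in Tumor, with a log2 fold change of 0.68 ± 0.31 (SE, limma, adjusted p = 0.0997). Tumor replicate 1 lay within the Normal range, and Kif23 was called without that library (adjusted p = 0.0302) and under quantile normalization (adjusted p = 0.0299).

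The chromatin markers of cycling cells rose with the rest. Mki67, whose protein Ki-67 coats mitotic chromosomes, was at 7.82, 3.47 and 2.90 FPKM in Normal and 16.2, 26.0 and 20.4 FPKM in Tumor, a log2 fold change of 2.25 ± 0.38 (SE, limma, adjusted p = 0.00177). Top2a, the topoisomerase that untangles replicated DNA, was at 9.36, 6.05 and 4.29 FPKM in Normal and 16.5, 25.6 and 24.2 FPKM in Tumor, a log2 fold change of 1.79 ± 0.31 (SE, limma, adjusted p = 0.00194). Neither overlapped between the groups. Mki67 is the sum of 2 rows of that name, of which 1 held most of the level in these 6 libraries.

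Other genes of the same processes, listed apart from the 50, moved in the same direction for the most part. Of 37 other replication genes tested, 28 were called higher and 1 lower, beside 28.8% and 31.7% of all tested genes, with a median log2 fold change of 1.04. Mcm10, Uhrf1 and Fen1 changed most, at 3.11, 2.17 and 2.15, and Orc3, a subunit of the origin recognition complex, was lower at -1.21 (limma, adjusted p = 0.00118). Of 46 other mitosis genes, 43 were called higher and 0 lower, beside the same 28.8% and 31.7%, with a median of 1.96, led by Cenpk, Spc24 and Cenpm at 3.09, 3.02 and 2.96.
Regulators of the cycle were split, with 12 of 27 called higher and 7 lower and a median of 0.48. With 28.8% of all tested genes called higher and 31.7% lower, the 7 lower calls are no more than the background. The largest rises were those of Cdkn3 and Cdc25c, phosphatases of cell division, at 3.88 and 3.70. The 7 that fell were Cdkn2c, Cdkn1c and Cdkn1b, inhibitors of cyclin-dependent kinases, Rbl2, a relative of the retinoblastoma protein, Lin52, a subunit of the complex that holds Rbl2, and Btg2 and Gas1, which restrain growth. Cdkn2c was at 72.5, 107 and 90.4 FPKM in Normal and 24.1, 19.1 and 18.5 FPKM in Tumor, a log2 fold change of -2.12 ± 0.18 (SE, limma, adjusted p = 0.000101). Inhibitors of these kinases did not all move one way. Cdkn1a, which encodes p21, was called higher, at 16.4, 17.7 and 20.7 FPKM in Normal and 41.7, 26.6 and 48.9 FPKM in Tumor (log2 fold change 1.05, limma, adjusted p = 0.00659), and Cdkn2d was not called (log2 fold change -0.22, limma, adjusted p = 0.242). Of the 7 lower calls, Gas1 had the largest adjusted p, 0.0451 (limma), and between 5 and 7 regulators were called lower over the alternatives. The summed adipocyte markers fell in the same libraries as these regulators, and their part was not tested.

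C646 and DMSO tumors did not differ detectably in these genes. All 48 genes found passed the filter, and 0 were called in either direction by limma over 12083 genes, where 0% of all tested genes were called higher and 0% lower. At an unadjusted p under 0.05, 0 of the 48 genes passed, beside 169 higher and 215 lower among all genes. All 48 overlapped between the groups, while 4.04% of all genes had every C646 library above every DMSO library and 4.52% had every one below. The log2 fold change was above 0 for 38 genes and below 0 for 10, with a median of 0.11, and above 0 for 46.9% of all tested genes. It ran from -0.22 for Ccne1 to 0.37 for Plk1. The 95% intervals reached down to -1.29 for Ccne1 and up to 1.11 for Plk1, the extremes over the genes, with a median width of 1.27. For each gene, changes within its own interval were not excluded.

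The mean of log2(FPKM + 2^-5) was 3.76, 4.09 and 4.65 in the DMSO replicates and 4.32, 4.49 and 4.0 in the C646 replicates. The C646 libraries lay within the range of the DMSO libraries. Group means were 4.17 ± 0.45 and 4.27 ± 0.25 (SD, n = 3 each), a difference of 0.11, smaller than either SD. The difference was -0.09 without DMSO replicate 1 and 0.35 without DMSO replicate 3, so its direction rested on single libraries.

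In each of the genes that follow, the DMSO libraries differed by more than the group means did. Plk1 had the largest difference, at 21.9, 24.2 and 43.2 FPKM in DMSO and 44.4, 42.4 and 26.0 FPKM in C646 (log2 fold change 0.37, 95% interval -0.38 to 1.11, limma, adjusted p = 0.99). Mki67 was at 22.9, 40.2 and 43.3 FPKM in DMSO and 52.3, 43.7 and 35.4 FPKM in C646 (log2 fold change 0.34, interval -0.30 to 0.98, limma, adjusted p = 0.99). Top2a was at 20.8, 27.9 and 33.8 FPKM in DMSO and 33, 35.5 and 26.8 FPKM in C646 (log2 fold change 0.23, interval -0.26 to 0.71). In each of the 3 genes DMSO replicate 1 was the lowest of the 6 libraries.
For Pcna, at 106, 127 and 169 FPKM in DMSO and 131, 142 and 128 FPKM in C646, the difference was 0.02 with an interval of -0.42 to 0.46. E2f1 was at 4.41, 5.46 and 8.34 FPKM in DMSO and 6.37, 6.31 and 6.33 FPKM in C646 (log2 fold change 0.11, interval -0.47 to 0.70). Mybl2 was at 3.24, 3.76 and 9.92 FPKM in DMSO and 4.34, 6.43 and 4.02 FPKM in C646 (log2 fold change -0.04, interval -1.08 to 1.01). DMSO replicate 3 was the highest library for each of these, and the C646 values lay inside the DMSO range. The row that joins Foxm1 with 4933413G19Rik was at 8.09, 8.20 and 11.3 FPKM in DMSO and 10.1, 11.7 and 8.71 FPKM in C646.

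In the other role groups the members with the largest difference also overlapped between the groups. Cdk2 had the narrowest interval of its group and the smallest unadjusted p of the 48 genes, 0.15 in limma, with 16.7, 19.4 and 22.2 FPKM in DMSO and 21.3, 24.2 and 22.7 FPKM in C646 (interval -0.11 to 0.58, adjusted p = 0.99). C646 replicates 2 and 3 lay above all DMSO libraries for Cdk2, and C646 replicate 1 lay within their range. Ccne1, the gene with the lowest fold change, was at 5.95, 4.43 and 12.9 FPKM in DMSO and 4.98, 9.5 and 4.51 FPKM in C646 (interval -1.29 to 0.85). Rrm2 was at 29.5, 30.8 and 52.1 FPKM in DMSO and 41.0, 54.7 and 36.6 FPKM in C646 (log2 fold change 0.26, interval -0.35 to 0.88).
For Ccne1 all C646 libraries lay within the DMSO range, and for Rrm2 C646 replicate 2 lay above it. Cdc6, Bub1b, Cenpf and Tpx2 had log2 fold changes of 0.25, 0.21, 0.25 and 0.17. Birc5 was at 35.9, 52.4 and 93.2 FPKM in DMSO and 69.1, 60.2 and 42.2 FPKM in C646, and Tk1 at 36, 40.4 and 47.3 FPKM in DMSO and 47.5, 41.1 and 34.1 FPKM in C646. No tumor of this experiment had the high Tk1 level of Tumor replicate 3, within tables made separately. Mki67 and Tk1 are sums of 2 rows each in these libraries.

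Of the other lists, 0 of 38 replication genes, 0 of 48 mitosis genes and 0 of 29 regulators were called between C646 and DMSO by limma, with 0, 1 and 2 at an unadjusted p under 0.05. The largest differences in each were those of Orc1 at 0.51, Cenpk at 0.68 and Cdkn1a at -1.29 on the log2 scale. Cdkn1a was at 114, 35.9 and 41.3 FPKM in DMSO and 23.8, 16.0 and 30.5 FPKM in C646, where the groups did not overlap (limma, adjusted p = 0.99). Adipocyte marker sums were 18.0 to 80.7 FPKM in DMSO and 106 to 627 FPKM in C646, and epithelial marker sums were 3437 to 4058 FPKM and 2993 to 3672 FPKM. By limma, 0 of 8 adipocyte and 0 of 10 epithelial markers tested were called, where 0 of all 12083 genes were. Skeletal muscle marker sums were 0.774, 1.69 and 437 FPKM in the DMSO replicates and 420, 2.39 and 373 FPKM in the C646 replicates, so that DMSO replicate 3, the highest library for all 48 genes of its group, also had the highest muscle sum there. The part of these markers in the values was not tested.

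**Figure D5:**
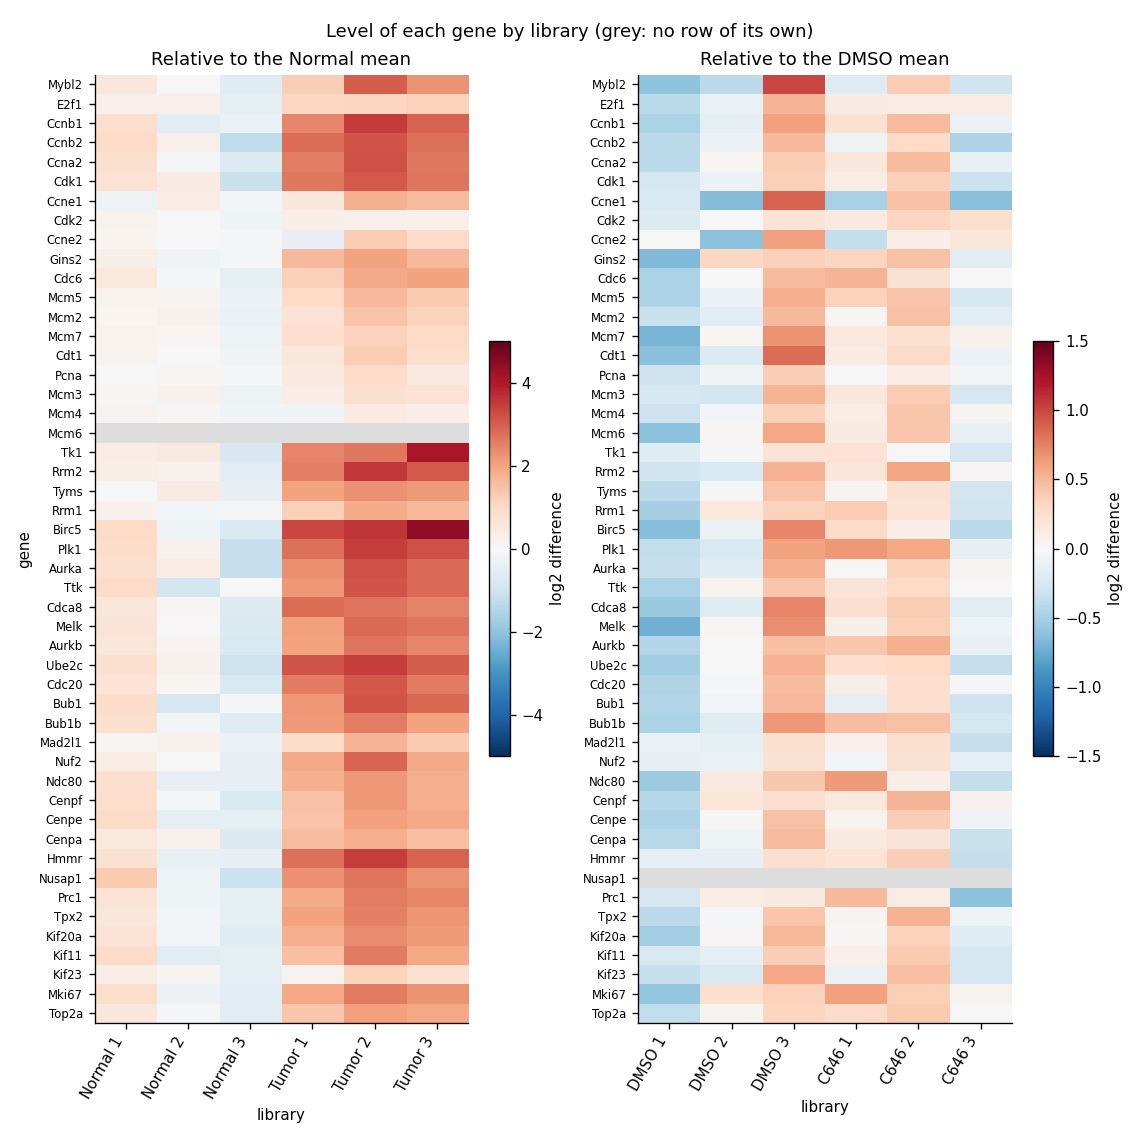
log2 level of each gene in each library minus the mean of Normal (left) or DMSO (right), with genes ordered by role as in the plot of fold changes and grey where a gene had no row of its own. The colour scale runs from -5 to 5 on the left and from -1.5 to 1.5 on the right. On the left all 3 Tumor columns are red for most genes, and on the right whole columns are red or blue, with DMSO replicate 3 the highest of its group for all 48 genes.

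Within each group the genes rose and fell together between libraries. Among the DMSO tumors, replicate 3 was the highest for 48 of 48 genes and replicate 1 the lowest for 44, where 36.8% of all tested genes were highest in replicate 3 and 35.4% lowest in replicate 1. Among the C646 tumors, replicate 2 was the highest for 37 genes and replicate 3 the lowest for 44. Among the untreated tumors, replicate 2 was the highest for 42 genes and replicate 1 the lowest for 39. Normal glands showed the same, with replicate 1 the highest for 40 genes and replicate 3 the lowest for 41, although each pooled 3 mice. Over all genes these shares lay between 25% and 45.2% in every library.
The spread was widest in normal gland. The median SD on the log2 scale was 0.64 for the genes and 0.18 for all genes in Normal, 0.34 and 0.28 in Tumor, 0.46 and 0.28 in DMSO, and 0.29 and 0.17 in C646. The median gene spanned 2.35-fold among the Normal libraries. Normal replicate 1, with the highest levels, also had the highest epithelial marker sum, 1029 FPKM, beside 492 and 611 FPKM in replicates 2 and 3, whose order was not that of the genes. Its skeletal muscle marker sum, 96.3 FPKM beside 15.9 and 11 FPKM in replicates 2 and 3, followed the order of the genes, while among the tumors the muscle sums of 5708, 3119 and 1868 FPKM did not. The part of these markers was not tested.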

How the data were processed

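Poly-A RNA was sequenced in 12 libraries. Per the submitters' processing notes the authors used TopHat2 2.1.1 and Cufflinks 2.2.1 with mm10, and they deposited FPKM per gene name, normalized to gene length and library size. FPKM are not counts, so no count model was used, and how many reads were mapped is not recorded.

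Rows without a name (1837 of 26220 in each Normal and Tumor file) were dropped and repeated names were summed. Names absent from the tables were skipped. Normal with Tumor and DMSO with C646 were each fitted with limma 3.58.1 in R 4.3.3 (trend, two-sided) on log2(FPKM + 2^-5), for genes of at least 1 FPKM in at least 3 of 6 libraries, with Benjamini-Hochberg adjustment over all genes tested and calls at 0.05. The pseudocount understates the fold changes of low genes. Group labels and replicate numbers came from the sample titles. Replicates were separate mice, or pools of mice in Normal. The tables of the experiments have different rows, so tests were made within each.

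The members and lists were chosen with earlier results of these data known. All members could be named. Values of every library were given for Mki67, Top2a, Pcna, E2f1, Foxm1 and Mybl2, and in each role for the most abundant gene and those with the largest and smallest change. In the other lists the 3 largest changes and those against the direction of the list were named. Marker lists covered epithelial, adipocyte, B, germinal centre, T, macrophage, endothelial, fibroblast, muscle and erythroid cells. The fit was tested on simulated data. Alternatives were other pseudocounts (1 and 0.25), no filter, other scalings, a joint fit, no trend, the highest of repeated rows, a replicate block, leaving out each library, and a shorter promoter window. Windows of 10 Mb used the log2 level of a library minus the mean of the other libraries of its group, over genes of at least 1 FPKM in all 3 and without the members. Other steps ran in Python 3.11.15 (pandas 2.3.3, numpy 2.4.6, matplotlib 3.10.9).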

Additional observations from a re-analysis of the deposited data

How the results depend on the processing

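The number of members called higher in Tumor stayed between 42 and 45 over all alternatives, with 0 lower in each. Of 704 values of single members in that comparison, 695 kept their direction and their side of the threshold, 7 lost the call (Pcna, Mcm3 and Ccne1) and 2 gained it (Kif23). The member mean difference lay between 1.71 and 2.23, and between 1.75 and 2.28 when a library was left out. Quantile normalization moved the median log2 fold change of all genes from -0.02 to 0.12, and fold changes there are read relative to it. Between C646 and DMSO, 0 members were called under every alternative, and 79 of 719 uncalled values changed sign. The count of all genes called there moved from 0 to 15 with no filter on low values, and lay between 0 and 12 when a library was left out, with 12 without DMSO replicate 2. The cause was not tested. The member mean difference lay between -0.09 and 0.35 when a library was left out. Without Tk1 and Birc5 the difference between Tumor and Normal was 1.95, and without chromosome 7 members that between C646 and DMSO was 0.11, alternatives chosen after seeing the data, as were the use of joined rows (1.98 and 0.10) and of members found in both experiments (2.0 and 0.11). With the shorter promoter window the counts of G2/M and G1/S members with TTTGAA remained 18 and 1.

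Replicate numbers were not used to pair the libraries in the main fit. Deviations of libraries with the same number correlated at -0.04, -0.10 and 0.01 for Normal and Tumor and at 0.17, 0.07 and 0.11 for DMSO and C646. Those with different numbers correlated between -0.06 and 0.09 for Normal and Tumor and between -0.23 and 0.14 for DMSO and C646. With the replicate number as a block, 3439 genes were called higher and 3827 lower in Tumor, 44 members among the former, and 0 genes were called between C646 and DMSO. The smallest adjusted p between C646 and DMSO over all genes was 0.0597 with the block and 0.99 without it (limma). No call of a member was changed by the block. Depth could not be weighed, since the files hold no read counts.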

Other observations

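Libraries differed in the level of whole chromosomes, chromosome 7 among them. Over protein-coding genes outside the list, C646 replicate 1 lay above the mean of the other C646 tumors by a median of 0.25 on chromosome 7 (780 genes), the highest of 20 chromosomes in that library, and DMSO replicate 2 by 0.17 (768 genes). The median of DMSO replicate 1 there was -0.17. In the other experiment the medians on chromosome 7 were -0.02, 0.12 and -0.11 in the Normal libraries and 0.16, -0.13 and -0.00053 in the Tumor libraries. Chromosome 7 had the highest median of the 20 chromosomes in Normal replicates 1 and 2. In Normal replicate 1 that rank was within a narrow range, since all 20 chromosomes lay between -0.07 and -0.02. Plk1 and Mki67, the genes with the largest and second largest difference between C646 and DMSO, are both on chromosome 7, as are Ccne1, Prc1 and Rrm1. The 5 genes had a median log2 fold change of 0.09, and the other members 0.11. The 837 other genes of the chromosome had a median of 0.02. These chromosomes were looked at after the values of the members had been seen.

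Mki67 was split between its 2 rows in different ways in the experiments. The first row held 0 to 2.28 FPKM in the Normal and Tumor libraries and 9.66 to 19.7 FPKM in the DMSO and C646 libraries, where the second held 13.3 to 32.5 FPKM. Nusap1 was joined with another name in DMSO and C646 only, and that row, at 23.1 ± 0.55 FPKM in DMSO and 22.2 ± 3.29 FPKM in C646 (SD, n = 3 each), did not follow the order of the libraries that the other members share among the DMSO tumors, being highest in replicate 2.

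The germinal centre list, which holds cycling B cells, had sums of 21.4 to 25 FPKM in Normal and 40.1 to 45.8 FPKM in Tumor, with 1 gene higher and 1 lower of 3 tested. Of the macrophage markers 1 was higher and 4 lower in Tumor, of 6 endothelial markers all were lower, and of 6 fibroblast markers found 5 were lower. Of 2 erythroid markers tested 0 were called.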
